A study of Felis catus with 3 samples.

Results

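Solute carriers are membrane proteins that move sugars, amino acids, nucleotides, metals, ions, fatty acids and drugs across the plasma membrane and the membranes of organelles. They are grouped into numbered SLC families by sequence, with the organic anion polypeptides named SLCO. Most work by exchanging or co-transporting solutes down an existing gradient and do not hydrolyse ATP. In cultured fibroblast-like cells, the carriers of mitochondria, of the secretory pathway and of amino acids serve general housekeeping. Many carriers of the SLC5, SLC22 and SLC34 families are instead known from absorptive or secretory epithelia of kidney, liver and gut.

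Expression of these genes was examined in 3 lines of feline adipose-derived mesenchymal stem cells (ASCs). Members were genes with a symbol starting with SLC and a digit, or with SLCO, among the 1997 genes of the study's gene table at hand. This gave 43 genes among 1811 with a symbol at hand, and among 21529 genes measured in all. The rest of the study's gene table was not at hand, so solute carriers among its other genes were not looked up. The cat RefSeq annotation (assembly F.catus_Fca126_mat1.0) lists 362 protein-coding genes with such symbols and includes 42 of the 43, so the 43 are a part of the family only. SLC5A4 was not matched there.

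Each line, labelled Gray_Boy, Luna or SPF2, was a primary culture from the fat of a different cat and was sequenced as 1 library. The values equalled those of the lines numbered 1, 2 and 3, in that order, in the study's table. All cultures were untreated, were grown in MEMα with 10% fetal bovine serum and were at passages 3 to 4, and the labels give no age or further condition. The study took fat from specific pathogen-free and from client-owned cats, and beyond the name SPF2 the labels do not say which origin each line had. The lines are therefore 3 samples of a single group by their labels, and no comparison of conditions was possible.

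Values are FPKM, which scale the fragments assigned to a gene by the length of its transcript and by the mapped reads of the library and allow levels to be set side by side between genes of different length. The fragments behind each value are unknown, so no counting error can be given. FPKM summed to 621797 in Gray_Boy, 688297 in Luna and 636464 in SPF2. Of 5 leukocyte markers, 4 had a symbol, and their summed level was 0.598 to 1.96 FPKM, with CD2 at 0 in every line. Of 3 endothelial markers, only TEK had a symbol, at 0.0595 FPKM or less. Luna stood apart in the remaining markers. Of 5 stromal markers, ENG (CD105) and COL5A1 had a symbol, and they summed to 597 FPKM in Luna against 251 in Gray_Boy and 335 in SPF2. The contractile genes LMOD1 and SMTN were also highest in Luna, with a sum of 221 FPKM against 72.1 in Gray_Boy and 78.3 in SPF2.

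The 43 members spanned a wide range of expression. A single gene, the ADP/ATP carrier SLC25A6, reached 100 FPKM in every line (high), or 2.33% of the members against 3.59% of all genes. A further 9 reached 15 FPKM in every line (moderate), 15 were lower but reached 1 FPKM in at least 1 line, 9 were above 0 but under 1 FPKM in every line, and 9 were listed at 0 in all lines. Thus 10 of 43 members (23.3%) met the 15 FPKM level in each line, against a background of 22.1% of all genes and 30.4% of genes with a symbol. At the low end, 18 members (41.9%) stayed under 1 FPKM in every line, against 46.1% of all genes, and the 9 at 0 were 20.9% of members against 29.0% of all genes. The median of the mean FPKM was 2.43 over the members and 1.57 over all genes. Genes with a symbol, from which the members were drawn, were higher. Of these, 34.3% stayed under 1 FPKM in every line, and their median of the mean FPKM was 5.68. Their share at 0 in every line was also smaller than that of the members. The low end and the median of the members thus lay above those of all genes but below those of genes with a symbol.

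Summed over the 43 members, expression was 1295 FPKM in Gray_Boy, 1370 FPKM in Luna and 1349 FPKM in SPF2, or 0.199 to 0.212% of all FPKM. SLC25A6 alone held 72.6% ± 0.51 (SD, n = 3 lines) of this sum. Without it, the remaining members summed to 366 ± 4.31 FPKM, and the totals of the lines lay close together. The FPKM sums of the lines over all genes differ, so this closeness applies only to FPKM as listed. In each line 32 members were above 0, but not the same genes throughout. Above 0 in every line were 30 members (69.8%), against 62.0% of all genes and 76.7% of genes with a symbol. A further 4 members were above 0 in some lines only.

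**Figure D1:**
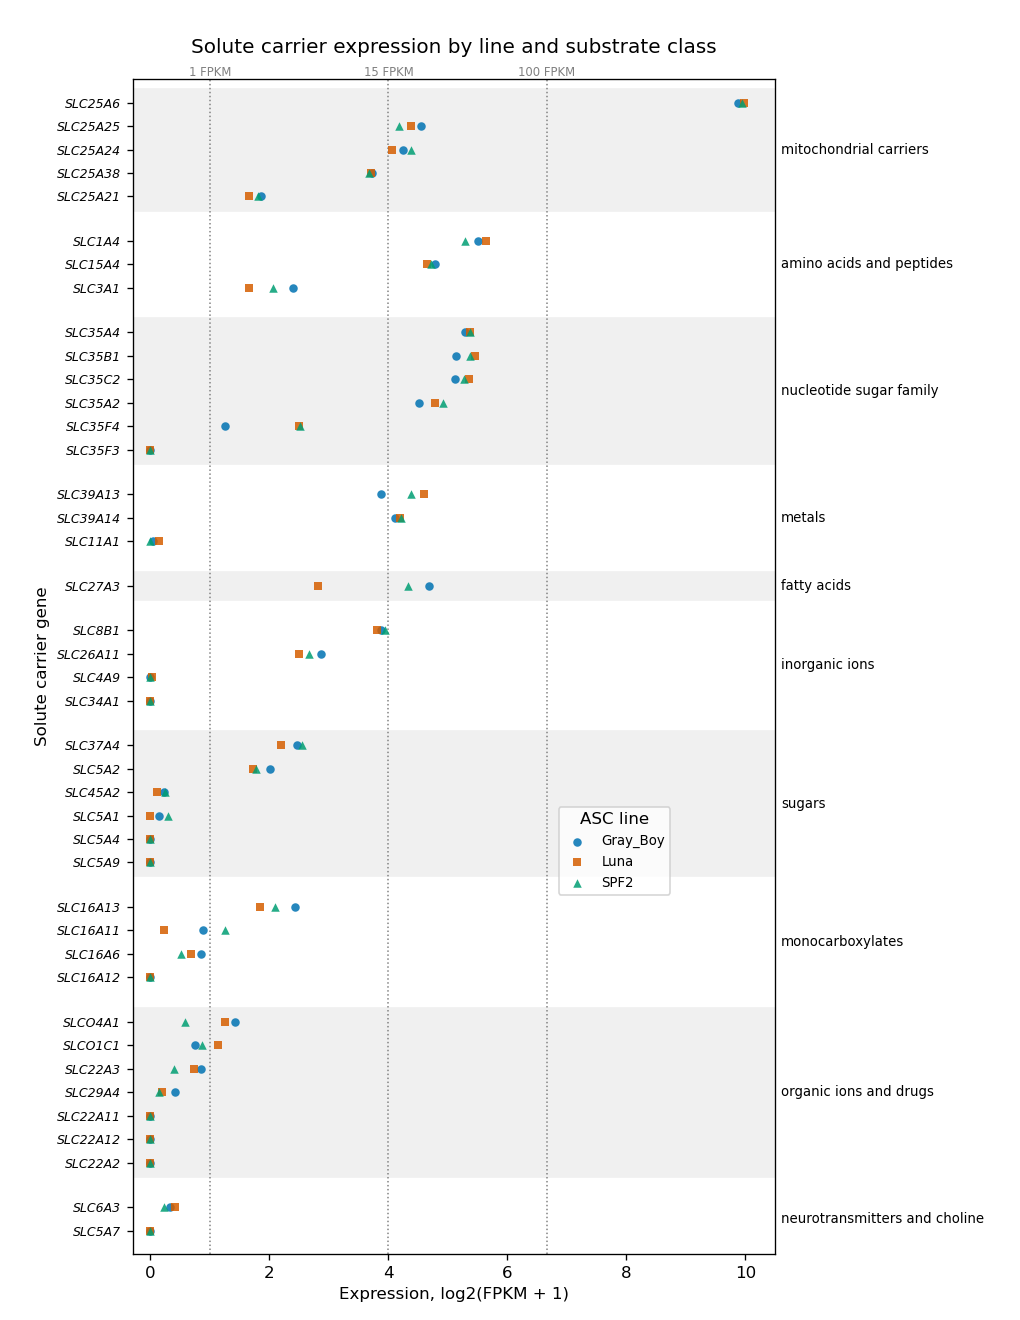
Expression of 41 solute carrier genes as log2(FPKM + 1), grouped by substrate class, with a point for each of the 3 lines and dotted lines at 1, 15 and 100 FPKM. SLC25A6 stands alone above 100 FPKM. A band of mitochondrial, amino acid, nucleotide sugar and metal carriers lies near or above 15 FPKM, together with SLC8B1 and, except in Luna, SLC27A3. Most carriers of sugars, organic ions and neurotransmitters lie near 0.

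By substrate class, the moderate and high members fell into 4 of 10 classes: mitochondrial carriers, carriers of amino acids and peptides, the SLC35 family, whose best-known members carry nucleotide sugars, and metal carriers. Of the 5 mitochondrial carriers, 3 reached 15 FPKM in every line, as did 2 of 3 amino acid and peptide carriers, 4 of 6 SLC35 members and 1 of 3 metal carriers. Of all genes, 22.1% reached this level. None of the 8 organic ion and drug carriers, 6 sugar carriers, 5 inorganic ion carriers, 4 monocarboxylate carriers or 2 carriers of neurotransmitters and choline did so, nor did SLC27A3, the only member of the fatty acid class. The set of classes depends on the scale, threshold and lines. SLC8B1, an inorganic ion carrier, passed after rescaling each line to a sum of 1000000, and at a threshold of 10 FPKM. SLC27A3 passed without Luna. Either of these genes adds a further class. The classes were assigned from general knowledge of each gene, and no set test was run. Each class holds only genes of the 43, so its levels do not describe all carriers of that substrate.

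**Figure D2:**
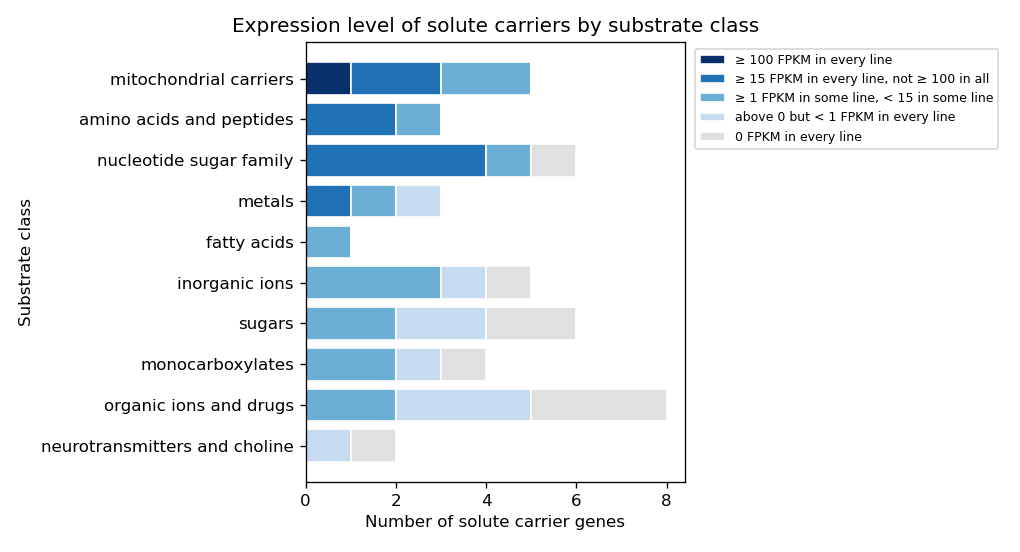
Number of solute carrier genes at each expression level (bar segments) in each of the 10 substrate classes. All members at 15 FPKM or more in every line belong to the top 4 classes. The organic ion and drug carriers, the largest class with 8 members, hold 3 of the 9 genes at 0 FPKM.

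Mitochondrial carriers of the SLC25 family exchange metabolites across the inner mitochondrial membrane. SLC25A6 (ENSFCAG00000001211), which exports ATP in return for ADP, had 934 FPKM in Gray_Boy, 1002 FPKM in Luna and 979 FPKM in SPF2, a mean of 972 ± 34.7 FPKM (SD, n = 3 lines). The values lay within 1.07-fold of each other. The gene ranked 100th of all 21529 genes by mean FPKM and was 22.2 times above the next of the 43 members. Its locus was at chromosome X, 802774 to 805108 of Felis Catus 8.0, a span of 2335 bp. The ADP/ATP carriers of this family are close in sequence, so reads shared with paralogs could affect this level.

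The calcium-regulated ATP-Mg/phosphate carriers SLC25A25 (ENSFCAG00000001495) and SLC25A24 (ENSFCAG00000001193) were both moderate. SLC25A25 had 22.5, 19.8 and 17.0 FPKM in Gray_Boy, Luna and SPF2, and SLC25A24 had 18.0, 15.7 and 19.9 FPKM. Their ranges overlapped and their order differed between lines. SLC25A38, a glycine carrier needed for heme synthesis, had 12.2, 12.0 and 11.8 FPKM. Its coefficient of variation (CV) of 1.75% was the lowest of the members at a mean of 1 FPKM or more. The FPKM sums of the lines differ, so this rank holds only for FPKM as listed. SLC25A21, which carries oxodicarboxylates, was the lowest mitochondrial member, at 2.43 ± 0.24 FPKM.

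Carriers of the SLC35 family supply nucleotides and nucleotide sugars to the endoplasmic reticulum and Golgi, where glycosylation takes place. They held 39.6% ± 3.39 (SD, n = 3 lines) of the summed FPKM left after SLC25A6. SLC35A4 (ENSFCAG00000001277) had 38.3, 40.5 and 40.5 FPKM in Gray_Boy, Luna and SPF2. SLC35B1 (ENSFCAG00000002638), an ATP/ADP exchanger of the endoplasmic reticulum, had 33.9, 42.7 and 40.5 FPKM, and SLC35C2 (ENSFCAG00000001100), linked to GDP-fucose supply, had 33.6, 39.8 and 37.6 FPKM. These 3 genes overlapped in range and formed a plateau between 33.6 and 42.7 FPKM.

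The Golgi UDP-galactose transporter SLC35A2 (ENSFCAG00000002571) was lower, with 21.9 FPKM in Gray_Boy, 26.4 FPKM in Luna and 29.3 FPKM in SPF2, all below the lowest value of SLC35C2. Gray_Boy, the line with the lowest FPKM sum over all genes, had the lowest FPKM of each of these 4 genes. The 5 expressed members of the family summed to 129 FPKM there, against 154 FPKM in Luna and 153 FPKM in SPF2. These differences were 1.33-fold or less for each gene and, with 1 library per line, could not be set against the error of a repeat library. SLC35F4 was low and is described below with the members that differed between lines. SLC35F3, linked to thiamine uptake, was listed at 0 in every line.

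Among the amino acid and peptide carriers, the neutral amino acid exchanger SLC1A4 (ASCT1; ENSFCAG00000001506) was the second highest of the 43 members by mean. It had 44.4 FPKM in Gray_Boy, 49.1 FPKM in Luna and 37.8 FPKM in SPF2. Its range overlapped that of SLC35A4, and in SPF2 it was the lower of the pair. SLC15A4 (ENSFCAG00000001693), a lysosomal histidine and peptide transporter, had 26.6, 24.2 and 25.1 FPKM, a narrow range.

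SLC3A1, or rBAT, is the heavy chain of the renal cystine transporter. It had 4.24 FPKM in Gray_Boy, 2.13 FPKM in Luna and 3.15 FPKM in SPF2. Its locus in the table, chromosome A3 from 66439916 to 66530384, was the same as that of PREPL, which had 9.65, 6.28 and 7.16 FPKM. The level of SLC3A1 is thus uncertain, because the handling of strand in the quantification is not given in the sources used here.

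Metal carriers were represented by a pair of ZIP importers and a phagosomal transporter. SLC39A14 (ZIP14; ENSFCAG00000001452), which takes up zinc, iron and manganese, had 16.3, 17.4 and 17.5 FPKM in Gray_Boy, Luna and SPF2. SLC39A13 (ZIP13; ENSFCAG00000002532), a zinc transporter of the early secretory pathway needed by connective tissue cells, varied more, with 13.7, 23.2 and 19.8 FPKM. Its value in Gray_Boy was just under 15 FPKM, whereas SLC25A24, with 15.7 FPKM in Luna, was the member closest above that level. SLC11A1 (NRAMP1), which macrophages use in the phagosome, was at 0.110 FPKM or less in every line.

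**Figure D3:**
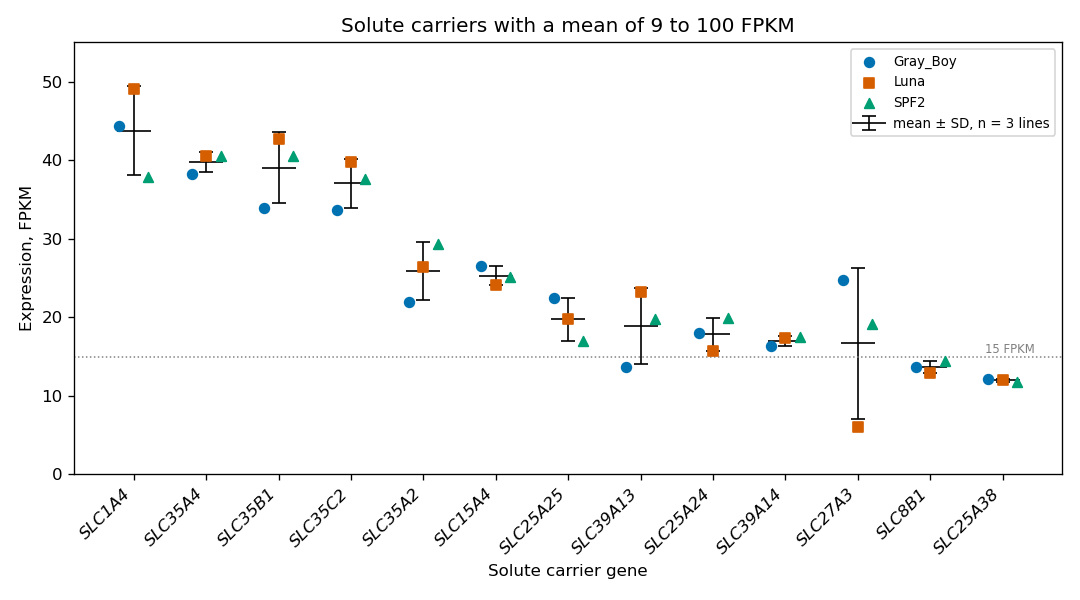
FPKM of 13 solute carriers with a mean between 9 and 100 FPKM in Gray_Boy, Luna and SPF2, with the mean and SD of the 3 lines and a dotted line at 15 FPKM. SLC27A3 shows the widest spread, with 6.04 FPKM in Luna against 24.8 and 19.2 FPKM, and SLC25A38 the narrowest.

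The 5 carriers of inorganic ions among the members were low. The mitochondrial sodium/calcium exchanger SLC8B1 had 13.7, 12.9 and 14.5 FPKM in Gray_Boy, Luna and SPF2. The sulfate transporter SLC26A11 had 6.29, 4.67 and 5.34 FPKM. The ranges of these genes did not overlap, and SLC8B1 was the higher in every line. The anion exchanger SLC4A9 was above 0 only in Luna, at 0.0201 FPKM, and the renal phosphate cotransporter SLC34A1 was listed at 0.

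Of the 6 sugar carriers among the members, 2 reached 1 FPKM in every line, against 49.6% of all genes. SLC37A4, which moves glucose 6-phosphate into the endoplasmic reticulum, led the class with 4.52, 3.57 and 4.84 FPKM. The sodium-glucose cotransporter SLC5A2 (SGLT2), known from the renal tubule, was next with 3.01, 2.31 and 2.43 FPKM, and its range did not overlap that of SLC37A4. SLC5A1 (SGLT1) was listed at 0 in Luna and had 0.108 and 0.231 FPKM in Gray_Boy and SPF2. SLC5A4 and SLC5A9 were at 0 in every line, and the melanosomal SLC45A2 stayed at 0.187 FPKM or less.

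The 4 monocarboxylate carriers among the members were also low. SLC16A13 had 4.39 FPKM in Gray_Boy, 2.59 FPKM in Luna and 3.29 FPKM in SPF2. SLC16A6 stayed between 0.429 and 0.810 FPKM, and the creatine transporter SLC16A12 was listed at 0.

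Of the 8 organic ion and drug carriers, the largest class, only 2 reached 1 FPKM in at least 1 line. Another 3 were above 0 but under 1 FPKM in every line, and 3 were at 0. Of all genes, 46.1% were under 1 FPKM in every line, a share that includes the 29.0% at 0. The class summed to 1.76 to 3.48 FPKM per line. SLCO4A1 had 1.67, 1.38 and 0.497 FPKM in Gray_Boy, Luna and SPF2, and the thyroid hormone transporter SLCO1C1 had 0.679, 1.19 and 0.821 FPKM. The organic cation transporter SLC22A3 (OCT3) had 0.809, 0.660 and 0.310 FPKM, whereas the renal SLC22A2 (OCT2) was listed at 0. The monoamine transporter SLC29A4 was at 0.104 to 0.329 FPKM. The anion and urate transporters SLC22A11 and SLC22A12 were listed at 0 in every line, as was the choline transporter SLC5A7. The dopamine transporter SLC6A3 was at 0.174 to 0.324 FPKM.

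Ordered by mean FPKM, the 23 members at a mean of 1 FPKM or more gave 22 pairs of neighbours. In 15 pairs the ranges of the 3 lines overlapped. In the other 7 they did not, and these breaks included those directly below SLC25A6, SLC35C2, SLC15A4, SLC8B1, SLC25A38 and SLC25A21. The ranges therefore did not resolve the order of neighbours within the bands between breaks. Taken line by line, SLC35B1 was above SLC35C2, SLC26A11 above SLC37A4 and SLC16A13 above SLC3A1 in all 3 lines. In the other overlapping pairs the order differed between lines.

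The lines resembled each other across the members. On log2(FPKM + 1), Pearson r across the 43 genes was 0.983 for Gray_Boy and Luna, 0.991 for Gray_Boy and SPF2 and 0.989 for Luna and SPF2, compared with 0.981, 0.991 and 0.982 across all genes. These describe genes within pairs of libraries, and genes are not independent replicates. Over the members at a mean of 1 FPKM or more, the median CV was 13.9%, against 13.3% over all genes at that level. Of these 23 members, 17 (73.9%) lay within 1.5-fold between the highest and the lowest line (FPKM + 1), against 74.4% of all genes at that level.

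Only SLC27A3, SLC35F4 and SLC16A11 differed 2-fold or more in FPKM + 1 between the highest and the lowest line. These 3 of 43 members (6.98%) compare with 6.14% of all genes, so the share is close to the background. Between Gray_Boy and Luna 2 members differed by this much (background 4.25%), between Luna and SPF2 2 members (background 3.91%) and between Gray_Boy and SPF2 1 member (background 1.61%). In this count Luna was the lowest line for 2 members (background 2.70%) and Gray_Boy for 1 member (background 1.70%). Each line had a single library, so none of these differences could be tested against replicate error.

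SLC27A3 (ENSFCAG00000002749) encodes an acyl-CoA synthetase of the fatty acid transport protein family and lies at chromosome F1, 68374601 to 68378674. It had 24.8 FPKM in Gray_Boy, 6.04 FPKM in Luna and 19.2 FPKM in SPF2. Luna was thus the low line, 4.10-fold below Gray_Boy, and the ratio of FPKM + 1 was 3.66. Without Luna, the other lines differed by a ratio of 1.28. Luna was also the line with the highest LMOD1 (109 FPKM against 27.4 and 22.0) and SMTN (112 FPKM against 44.7 and 56.3), and with the highest COL5A1 (480 FPKM against 178 and 261) and ENG (117 FPKM against 72.5 and 73.9), and their part in the SLC27A3 result was not tested.

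SLC35F4 (ENSFCAG00000001291), a poorly characterised member of the SLC35 family at chromosome B3, 106075989 to 106107841, had 1.38 FPKM in Gray_Boy, 4.61 FPKM in Luna and 4.74 FPKM in SPF2. Here Gray_Boy was the low line and the other lines differed by a ratio of only 1.02 in FPKM + 1. The ratio over all lines was 2.41.

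SLC16A11 (ENSFCAG00000001354), a monocarboxylate transporter family member, had 0.837 FPKM in Gray_Boy, 0.172 FPKM in Luna and 1.38 FPKM in SPF2. The highest value was 8.01-fold above the lowest, but the ratio of FPKM + 1 was 2.03. The ratio fell to 1.29 without Luna and to 1.57 without SPF2.

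**Figure D4:**
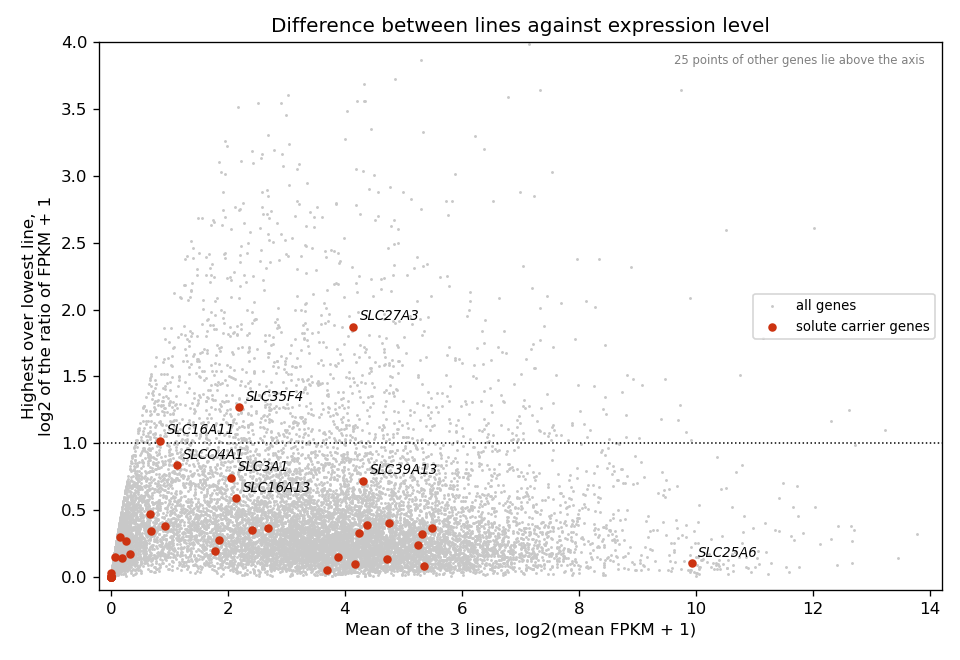
Ratio of the highest to the lowest line (log2 of the ratio of FPKM + 1) against the mean level (log2 of mean FPKM + 1) for all genes (grey) and 41 solute carriers (red), with a dotted line at a 2-fold ratio. The members lie within the cloud of all genes, SLC27A3, SLC35F4 and SLC16A11 are above the line, and SLC25A6 is high and nearly equal between lines. The vertical axis ends at 4, above which 25 further points of other genes lie.

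Between 1.5-fold and 2-fold in FPKM + 1 were SLCO4A1 (ratio 1.78), SLC3A1 (1.67), SLC39A13 (1.65) and SLC16A13 (1.503). Together with the 3 genes above, 7 members (16.3%) differed 1.5-fold or more, against 15.5% of all genes. The low line was not the same throughout. It was Luna for SLC27A3, SLC16A11, SLC3A1 and SLC16A13, Gray_Boy for SLC35F4 and SLC39A13, and SPF2 for SLCO4A1.

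The members lay on 16 chromosomes, and some were neighbours. SLC22A2 and SLC22A3 lay 10965 bp apart on chromosome B2. Both were under 1 FPKM in every line, as were the neighbours SLC22A11 and SLC22A12 on chromosome D1 (gap 15977 bp) and SLC5A1 and SLC5A4 on chromosome D3 (gap 20183 bp). SLC16A13 and SLC16A11 were 1001 bp apart on chromosome E1, and both had their lowest value in Luna. By contrast, SLC4A9 and SLC35A4, 184 kb apart on chromosome A1, had means of 0.00670 and 39.8 FPKM. In the cat RefSeq annotation, SLC22A2 with SLC22A3, SLC22A11 with SLC22A12 and SLC16A13 with SLC16A11 were also next to each other among protein-coding genes.

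For context, 17 transport genes that carry no SLC symbol were read from the same table. Of these 17, 4 reached 15 FPKM in every line, against 22.1% of all genes. The highest was MTCH1, a distant relative of the SLC25 carriers in the outer mitochondrial membrane, with 151, 152 and 154 FPKM in Gray_Boy, Luna and SPF2. It was followed by the plasma membrane calcium pump ATP2B4 (75.1 ± 10.7 FPKM, SD, n = 3 lines), the lysosomal MFSD12 (44.8 ± 6.52 FPKM) and the cholesterol transporter NPC1 (30.6 ± 1.83 FPKM). MTCH1 was thus the only gene of this list to reach the high level, as SLC25A6 was among the 43 members. Of all genes, 3.59% did so.

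The other 13 genes were lower. ABCA2, NIPAL3, PQLC1, FLVCR1, the drug exporter ABCG2 and the water and glycerol channel AQP3 reached 1 FPKM in at least 1 line, with means from 0.720 to 14.8 FPKM. ATP8B3, OCA2, ABCG4 and SPNS3 stayed under 1 FPKM in every line. ATP13A5, ATP8A2 and RHAG, an ammonia channel of red cells, were listed at 0, as were 29.0% of all genes. At 2-fold or more in FPKM + 1 between lines, the count was 0 of 17, against 6.14% of all genes. NIPAL3 was just short of this, with 17.7 FPKM in Gray_Boy, 8.40 FPKM in Luna and 8.98 FPKM in SPF2, a 2.11-fold difference without the added 1.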

How the data were processed

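Strand-specific poly-A libraries (200 ng of total RNA each) were made by the authors from 3 feline ASC cultures. Per the study's methods, HISAT mapped the reads to Felis Catus 8.0, Cufflinks estimated expression and Cuffnorm scaled the libraries. The deposited unit is FPKM, listed by gene for each culture. Versions, annotation release and normalization method are not given in the sources used here. Symbols and loci came from the study's gene table, of which only 1997 genes were at hand, and RefSeq names from F.catus_Fca126_mat1.0. No sequence is printed.

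Means, SDs, CVs and ratios of FPKM + 1 were computed with Python 3.11.15, pandas 2.3.3 and numpy 2.4.6, and plotted with matplotlib 3.10.9. The code was tested on simulated data. Counts used all genes, and the median CV, the order of neighbours and the 1.5-fold share used those at a mean of 1 FPKM or more. No test was possible with 1 library per line. Levels of 15 and 100 FPKM follow the study. The values of 2 members are counted but not reported here. The others are named, with values by line for those at 15 FPKM or more, those differing 2-fold, and the leading and lowest members of each class. The members, classes and lists were chosen with earlier results of these data known. Alternatives changed the scale, the pseudocount (0.1), the thresholds (1.5 times), the filter and the lines included.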

Additional observations from a re-analysis of the deposited data

How the results depend on the processing

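The fragments per gene are unknown, so no counting error can be given, a gene listed at 0 need not be absent, and differences between lines cannot be set against repeat libraries. No paired analysis was possible because all samples belong to a single group. Of 45 alternative values over 7 results, 39 stayed within 1.5 times of the reported count, or within 1 SD for the SLC25A6 share and the median CV. Some had little room to move. SLC25A6 had 934 FPKM or more and the next member 49.1 FPKM or less, so the count at 100 FPKM stayed at 1. Leaving out a line can only lower the count differing 2-fold. The SD for the median CV came from the medians found without each line in turn. With the threshold of 15 FPKM raised 1.5 times, 6 members (14.0%) passed in place of 10, against 15.9% of all genes. With a pseudocount of 0.1, 8 members (18.6%) differed 2-fold or more in place of 3, against 15.2% of all genes. Without each line in turn that count ranged from 1 (without Luna) to 2, and the median CV from 9.45 to 13.2%. The median CV over all members above 0 was 21.1%. Rescaling each line to a sum of 1000000 gave 13 members at 15 or more, against 28.8% of all genes. The added members were SLC39A13, SLC25A38 and SLC8B1, the last of which brought in the inorganic ion class. Rescaling also added SLCO4A1 to the members differing 2-fold (ratio 2.07), which made 4, against 7.69% of all genes on that scale.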
